A study of Mus musculus with 14 samples.

Results

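The 362 H3K27ac sites that start between 117 and 118 Mb of mouse chromosome 2 are described here, out of 122228 sites in the list made from all samples. The megabase was selected on its number of sites, which was the highest of 2645 bins of 1 Mb, and the number is therefore given as a description without a test. The sites came from clone NG3 of immortalised mouse embryo fibroblasts (iMEF), in which exon 4 of both Ash2l alleles had been deleted and growth depended on a lentiviral FKBP-tagged human ASH2L. The tag allows dTAG-13 to recruit a ubiquitin ligase, so that ASH2L is degraded. Chromatin immunoprecipitation and sequencing (ChIP-seq) directed at histone H3 acetylated on lysine 27 comprised 12 libraries, of which 2 were from untreated control cells (labelled WT) and 2 from each of the dTAG treatments of 30 min and of 2, 4, 8 and 16 h. Chromatin without immunoprecipitation (input) was sequenced in 2 libraries, 1 of control cells and 1 of the 16 h treatment. All groups share the deleted Ash2l alleles and the tagged protein, and because they derive from 1 clone the replicates cannot show how clones differ. The list held the position of each site and no value for any sample. A site may therefore come from any time point, its read depth was unknown, and neither replicate error nor change after dTAG could be given.

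H3K27ac is placed by acetyltransferases such as p300 and CBP and is found at active promoters and enhancers. Enhancers lie at a distance from the genes that they activate, and they can be grouped into clusters in which many acetylated stretches follow each other. Among the protein-coding genes of the megabase, Spred1 encodes an inhibitor of Ras signalling that works together with neurofibromin, and Rasgrp1 encodes a nucleotide exchange factor that activates Ras and is best known from T cells. Fam98b encodes a component of a tRNA ligase complex. The next protein-coding gene, Thbs1, lies beyond the upper edge of the megabase and encodes thrombospondin-1, a secreted matrix glycoprotein that fibroblasts produce.

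The positions went against the naming of the megabase after Spred1 and Rasgrp1. Few sites were at these genes. Of the 362 sites, 348 (96.1%) lay in the stretch that follows the 5′ end of Rasgrp1, in the direction of Thbs1, where no protein-coding gene was annotated. In the following the region is therefore called by its position.

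Representative sequences are shown first, all read from GRCm38 (mm10). At the protein-coding genes they are parts of the sites outside annotated exons. CG dinucleotides, from which CpG islands (CGIs) are made up, are in capitals, to show how the sites at the gene starts differ from those farther away. The stretch at Spred1 (chr2:117120871-117121070, plus strand) ends before the first annotated start and has 30 CG in 200 bases. The stretch at Fam98b (chr2:117249630-117249738, plus strand) is the upstream end of its site and has 8 CG in 109 bases. The stretch at Rasgrp1 (chr2:117342536-117342674, minus strand) is the intronic end of its site and has 7 CG in 139 bases.
Spred1: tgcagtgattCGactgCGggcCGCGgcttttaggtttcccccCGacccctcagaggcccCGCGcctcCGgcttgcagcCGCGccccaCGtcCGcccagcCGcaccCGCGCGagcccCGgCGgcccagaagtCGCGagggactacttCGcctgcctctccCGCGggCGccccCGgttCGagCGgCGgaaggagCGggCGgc
Fam98b: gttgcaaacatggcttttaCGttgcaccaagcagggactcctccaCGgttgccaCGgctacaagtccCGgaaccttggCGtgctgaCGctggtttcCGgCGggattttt
Rasgrp1: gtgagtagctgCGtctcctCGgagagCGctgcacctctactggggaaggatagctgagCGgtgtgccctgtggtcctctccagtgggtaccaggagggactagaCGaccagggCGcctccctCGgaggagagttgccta

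In contrast, most sites after Rasgrp1 had few CG, with a median of 3 and at most 28 per site. Sites up to Rasgrp1 that were away from the gene starts had between 1 and 18. Shown are the bases before the 5′ end of the noncoding gene 4930412B13Rik (chr2:117821728-117821927, plus strand), with 1 CG in 200 bases. The middle of the widest site of the largest cluster (chr2:117670418-117670617, plus strand) has 2 CG, and the middle of the widest site of the megabase (chr2:117997861-117998060, plus strand) has 1.
4930412B13Rik: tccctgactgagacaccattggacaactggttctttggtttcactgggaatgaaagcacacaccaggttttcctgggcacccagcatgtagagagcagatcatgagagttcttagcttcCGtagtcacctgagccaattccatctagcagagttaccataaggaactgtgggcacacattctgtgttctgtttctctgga
Largest cluster: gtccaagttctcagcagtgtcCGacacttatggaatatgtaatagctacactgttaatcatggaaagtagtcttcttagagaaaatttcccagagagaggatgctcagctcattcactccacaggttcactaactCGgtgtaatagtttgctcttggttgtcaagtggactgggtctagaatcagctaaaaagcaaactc
Widest site: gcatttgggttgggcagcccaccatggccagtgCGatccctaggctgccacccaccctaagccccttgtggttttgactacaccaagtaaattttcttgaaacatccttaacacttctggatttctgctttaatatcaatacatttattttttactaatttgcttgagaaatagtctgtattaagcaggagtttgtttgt

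Sequence that matches the motif of AP-1 (Fos and Jun proteins, which act at many fibroblast enhancers) is shown in capitals for the sites that hold 2 matches closest to each other. Both matches of AP-1 site 1 (chr2:117542391-117542590, plus strand) start 60 bp apart, and those of AP-1 site 3 (chr2:117748989-117749188, plus strand) start 78 bp apart. A match describes the letters and does not show binding.
AP-1 site 1: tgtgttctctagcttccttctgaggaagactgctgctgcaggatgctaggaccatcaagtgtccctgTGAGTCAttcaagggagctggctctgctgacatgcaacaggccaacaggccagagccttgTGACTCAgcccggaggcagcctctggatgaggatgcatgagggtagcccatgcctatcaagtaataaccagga
AP-1 site 3: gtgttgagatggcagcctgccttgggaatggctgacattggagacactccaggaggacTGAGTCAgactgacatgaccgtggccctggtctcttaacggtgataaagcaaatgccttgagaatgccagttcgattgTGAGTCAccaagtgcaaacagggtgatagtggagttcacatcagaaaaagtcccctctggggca

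The first question was where the sites lay relative to the 3 protein-coding genes. From the start of the megabase to the 5′ end of Rasgrp1, 14 sites were found in 343.0 kb, or 4.08 per 100 kb. This was close to the mean of 4.64 per 100 kb over chromosomes 1 to 19 and X. The first 89.7 kb after the 5′ end of Rasgrp1 carried 0 sites. From there to the 5′ end of Thbs1, 415 sites were found in 679.1 kb, or 61.1 per 100 kb, which was 15.0 times the density up to Rasgrp1 and 13.2 times the mean of the chromosomes. Sites covered 36.3% of the bases of this stretch, compared to 2.39% up to the 5′ end of Rasgrp1 and 2.99% over the chromosomes.

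The dense stretch ran past the edge of the megabase. Its 347 sites up to 118 Mb were followed by a further 67 sites that start beyond the edge and precede Thbs1, and 1 site straddled the edge. The last site of the megabase (chr2:117999640-118000473, 834 bp) was 179 bp from the next (chr2:118000653-118000852, 200 bp). The lower edge differed, with the last site outside (chr2:116976912-116977522, 611 bp) 22478 bp from the edge and the first inside (chr2:117018420-117018883, 464 bp) 18419 bp from it. The boundary of 118 Mb thus divided a single run of sites, while that of 117 Mb lay in a gap. Neighbouring bins contained 43 sites from 116 to 117 Mb and 180 sites from 118 to 119 Mb.

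**Figure D1:**
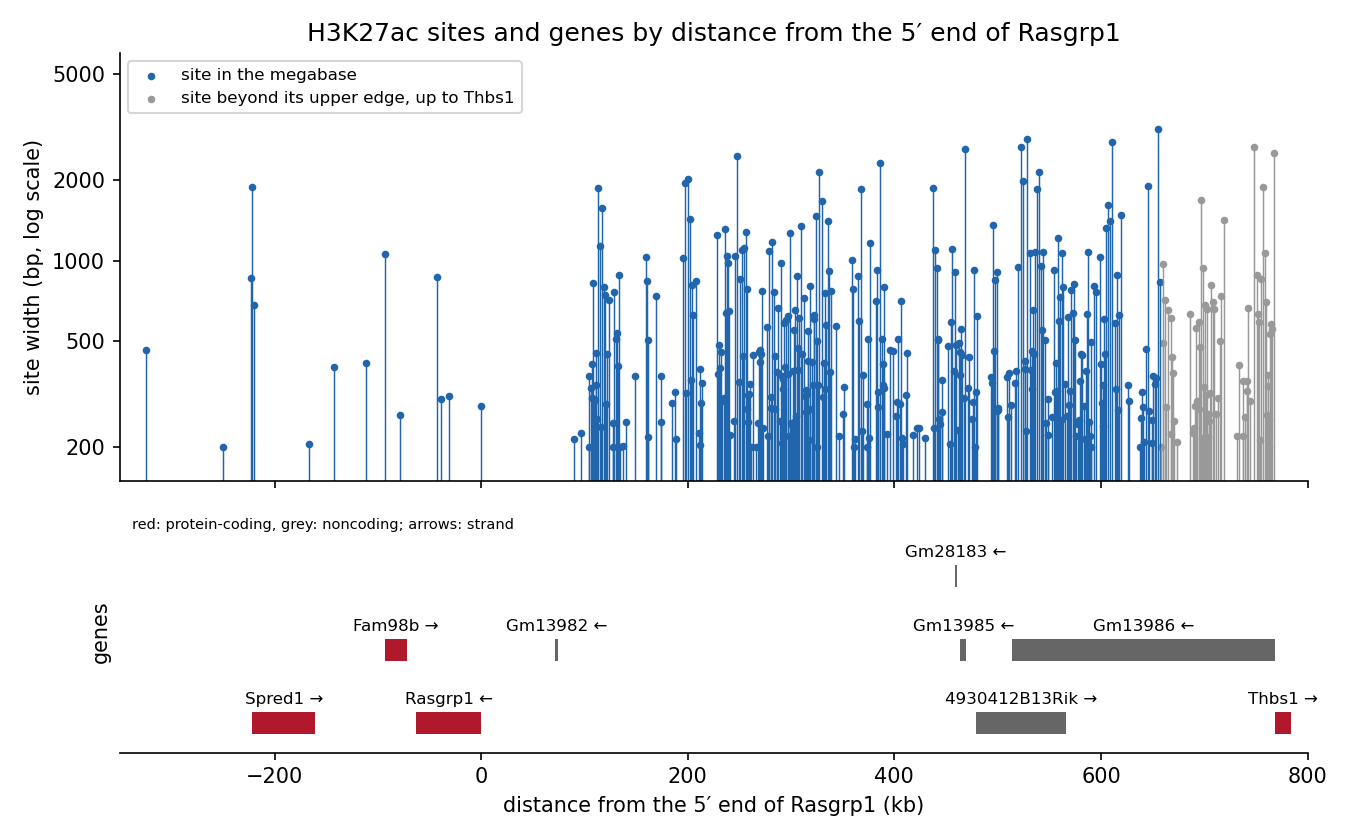
Width of each site (bp, log scale) by the distance of its middle from the 5′ end of Rasgrp1 (kb), with genes below. Blue points are the 362 sites of the megabase and grey points the sites beyond its edge up to Thbs1, and the sites are sparse over Spred1, Fam98b and Rasgrp1 and dense from 89.7 kb after the 5′ end of Rasgrp1.

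In steps of 50 kb from the 5′ end of Rasgrp1, the first had 0 sites and the second 2. Each of the next 14 steps, which extend to 800 kb, had between 14 and 45 sites. The highest counts were 45 sites from 250 to 300 kb and 44 sites from 300 to 350 kb, where sites covered 47.3% and 51.8% of the bases. Of these 14 steps, that from 150 to 200 kb had the fewest, with 14 sites. Beyond 800 kb, after Thbs1, the counts dropped to between 6 and 14 per step. Before the 5′ end of Rasgrp1 no step had more than 4 sites.

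**Figure D2:**
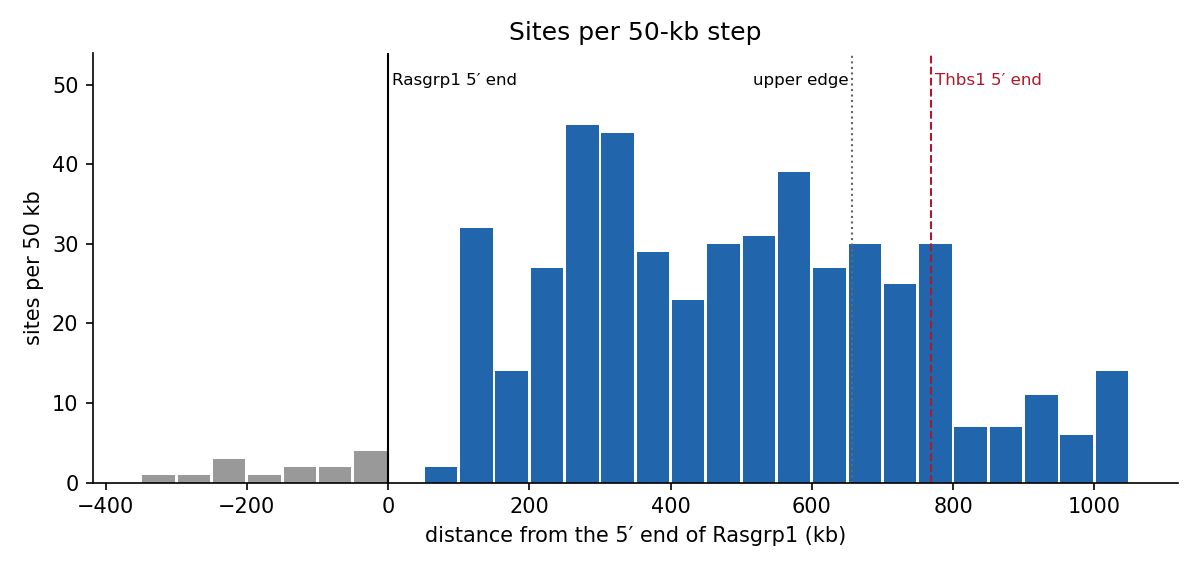
Number of sites per 50-kb step by distance from the 5′ end of Rasgrp1 (kb), with grey bars before and blue bars after it, a dotted line at the upper edge of the megabase and a dashed line at the 5′ end of Thbs1. Counts rise from 2 to 32 after 100 kb and fall from 30 to 7 after 800 kb.

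Spred1 (chr2:117121374-117182279, plus strand) had 3 sites around its 5′ end. The middle one (chr2:117120398-117122278, 1881 bp) extended from position -976 to position 904 relative to the 5′ end and was the widest of the 14 sites up to Rasgrp1. It had a GC content of 67.0%, contained 205 CpG and overlapped a CGI of 1414 bp. An upstream site of 863 bp (chr2:117119449-117120311) was separated from it by 86 bp and overlapped a second CGI of 230 bp. A downstream site of 682 bp (chr2:117122673-117123354) was in the gene, 394 bp after the middle one, and did not overlap a CGI. Apart from these, the 60.9 kb of Spred1 contained 1 site of 206 bp. The 121.4 kb from the start of the megabase to Spred1 had, besides the sites at its 5′ end, 1 site of 464 bp and 1 of 200 bp.

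Fam98b (chr2:117249739-117271540, plus strand) had a single site at its 5′ end (chr2:117249630-117250689, 1060 bp), which extended from position -109 to position 950. It had a GC content of 57.4% with 62 CpG and overlapped a CGI of 512 bp. A narrower site of 263 bp lay in the remainder of the gene. The 67.5 kb between Spred1 and Fam98b contained 2 sites of 399 and 412 bp, and the 8.45 kb between Fam98b and Rasgrp1 contained 0.

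Rasgrp1 (chr2:117279993-117343001, minus strand) is oriented towards Fam98b, so that its 5′ end faces the dense stretch. Its site at the 5′ end (chr2:117342536-117342821) was 286 bp wide, began 180 bp downstream of the outermost 5′ end and contained 1 of the 4 annotated transcription start sites (TSSs). The GC content was 69.9%, the highest of all 362 sites, with 27 CpG, and the site overlapped a CGI of 417 bp. Within the 63.0 kb of the gene, there were 3 further sites of 870, 303 and 312 bp. The 3 genes thus resembled each other in having a CpG-rich site at the 5′ end, and the sites there differed in width from 286 to 1881 bp. The megabase contained these 4 CGIs and no others, and each overlapped a site.

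Spred1 and Rasgrp1 were compared with other regulators of Ras. Of 18 genes listed, 17 were found on the chromosomes used (Spry3 was not), and for 15 of them a site was located within 1 kb of a TSS. This was the case for 54.7% of all 21755 protein-coding genes. The exceptions were Rasgrp2 and Rasgrp4, which belong to the same family of exchange factors as Rasgrp1. Among the 15, the site of Rasgrp1 with 286 bp was the narrowest, compared to 747 bp at Spry1, the next, and 5012 bp at Spry2, the widest. Within 100 kb of the 5′ end there were 8 sites for Rasgrp1 and 6 for Spred1, compared to a median of 10 over the 17 genes. Rasgrp3 had the most, with 38. Nf1, which encodes neurofibromin, had 31 sites in its 241.9 kb, while Spred1 had 2 in its 60.9 kb. Neither gene after which the megabase was named had many sites nearby by this measure.

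The source of the cells was checked with marker genes. All 10 fibroblast markers had a site overlapping the window of 1 kb around a TSS, and for 8 of them the middle of a site was in it, compared to 55.8% and 54.7% of all protein-coding genes. By the middle of a site, for T cells, in which Rasgrp1 is known to act, it was 2 of 8 (Lck and Cd247). B cell markers had 0 of 4, other blood cell markers 1 of 4 (Csf1r), epithelial markers 1 of 4 (Krt8) and endothelial markers 2 of 4 (Cdh5 and Tek). Without a site at the TSS, Cdh1 had 15 sites and Pecam1 had 9 within the gene. The sites at epithelial, blood and endothelial genes had no value per sample, and the part of other cells in the list was not tested.

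Besides the 3 protein-coding genes, 9 annotated genes overlapped the megabase, none of them protein-coding. Of these, 4 had a site within the gene, namely Gm28183, Gm13985, 4930412B13Rik and Gm13986. Each is annotated as a noncoding transcript and its function is not described here. Mir674, the pseudogenes Gm13981 and Rap1a-ps2, the small nuclear RNA gene Gm25189 and the long noncoding gene Gm13982 had 0 sites.

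4930412B13Rik (chr2:117821928-117909136, plus strand) contained the middle of 51 sites. A further site of 323 bp (chr2:117821623-117821945) covered the 5′ end, with its middle 144 bp upstream. A site of 619 bp began 359 bp downstream of the 5′ end. The site at the 5′ end had a GC content of 44.6% and 1 CpG, unlike those of the 3 protein-coding genes. Gm13986 (chr2:117857291-118111202, minus strand) spanned 253912 bp and contained 163 sites, 96 of which belong to the megabase. Its 5′ end was outside the megabase, close to that of Thbs1. The 5′ end of Gm13985 (chr2:117806678-117812813, minus strand) was covered by a site of 2617 bp, 1 of 5 sites in the gene. Gm28183 (chr2:117802117-117803664, minus strand) had 1 site in the gene and 2 within 1 kb of its TSS. The annotated span of a noncoding gene does not show whether it was transcribed in these cells.

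The next question was how many of the sites were at promoters. In 8 of 362 cases (2.21%, 95% Wilson interval 1.12 to 4.30%) the middle of the site was at most 1 kb from a TSS, compared to 18.7% of all 122171 sites on chromosomes 1 to 19 and X. Of the 8, 3 were at protein-coding genes and 5 at noncoding genes. The median share within 1 kb of a TSS over 1684 bins with at least 20 sites was 16.7%, and 51 bins had a lower share than the megabase. In the bins ranked 2, 3 and 4 by number of sites it was 5.04%, 4.68% and 1.71%, so a low share was not particular to the megabase. The site was between genes for 238 (65.7%, interval 60.7 to 70.4%), compared to 31.3% of all sites. The intervals cover counting error only, and since neighbouring sites are not independent they are too narrow.

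Most sites were far from the TSSs annotated in GENCODE. The median distance from the middle of a site to the nearest TSS was 84779.5 bp (interval 76694 to 92718 bp), compared to 8454 bp for all sites, and 257 sites (71.0%) were more than 50 kb away, compared to 10.3% of all sites. RefSeq lists further noncoding starts in the dense stretch, Gm32137 at 96.98 kb and Gm32210 at 361.95 kb after the 5′ end of Rasgrp1. They were not included, so sites around them are closer to a start than given here. The distances were not recomputed with them. To the nearest protein-coding TSS the median was 248412 bp compared to 23458 bp. Rasgrp1 was the nearest protein-coding gene for 187 sites, Thbs1 for 165, Spred1 for 6 and Fam98b for 4. The distance does not tell which gene a site acts on, and this was not tested.

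The megabase had 3 5′ ends of protein-coding genes. Of all bins, 1076 had as few or fewer, and their median was 9 sites. The second highest count among them was 299 sites, compared to 362. Over all 2645 bins the median was 34 sites, and the bin next in rank (chromosome 7, 112 to 113 Mb) had 357 sites with 6 such 5′ ends. Between genes were 9.24% of its sites, compared to 65.7% in the megabase, and outside protein-coding genes 12.04%, compared to 97.8%. In the bin of rank 3 (chromosome 15, 62 to 63 Mb), with 0 protein-coding 5′ ends, the corresponding shares were 19.1% and 100%. Of 1684 bins with at least 20 sites, 138 had a higher share between genes than the megabase. By the bases in sites, 216.0 kb in the megabase, 3 bins ranked higher.

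**Figure D3:**
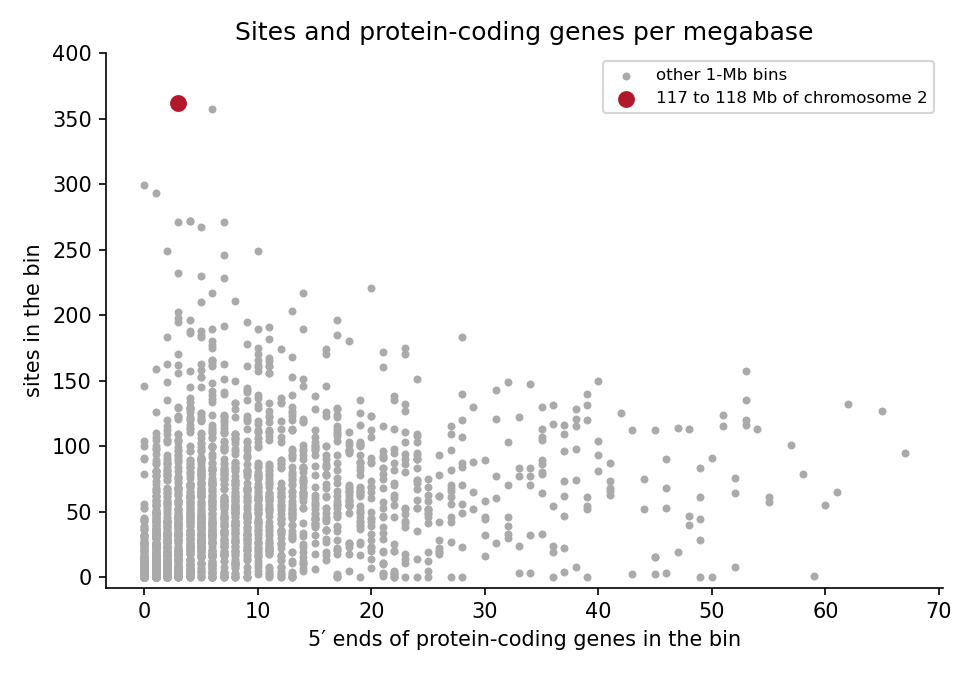
Number of sites by number of 5′ ends of protein-coding genes in each of 2645 bins of 1 Mb. The red point is the megabase, with 362 sites and 3 such 5′ ends, and grey points are the other bins, of which those with at most 3 such 5′ ends reach 299 sites.

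The width of the sites was close to that of the whole list. The median was 406.5 bp (interval 371 to 447 bp; quartiles 283.5 and 760.75 bp), compared to 401 bp for all sites. For sites more than 1 kb from a TSS the medians were 401.5 bp and 369 bp. The narrowest measured 200 bp, a width that 11 sites had (3.04% compared to 5.77% of all sites). Sites wider than 2000 bp numbered 10 (2.76% compared to 4.33%). All 10 were after Rasgrp1, as were 348 of the 362 sites (96.1%). The median was 405.5 bp (interval 263 to 870 bp) for the 14 sites up to the 5′ end of Rasgrp1 and 406.5 bp (interval 371 to 447 bp) for the 348 sites after it. With 14 sites, a difference in width would have to be large to be seen.

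The 5 widest sites were all located after Rasgrp1, as were 96.1% of all sites of the megabase. The widest (chr2:117996411-117999511, 3101 bp) was close to the upper edge, 655.0 kb after the 5′ end of Rasgrp1. It was followed by sites of 2847 bp (chr2:117870327-117873173), 2784 bp (chr2:117952766-117955549) and 2673 bp (chr2:117863854-117866526), and these 4 were between 41882 and 85685 bp from a TSS. The site of 2617 bp at the 5′ end of Gm13985 (chr2:117810553-117813169) was the exception, as its middle was 952 bp from the TSS. None of the 5 overlapped a CGI.

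The gaps between sites separated the dense from the sparse stretch. Over the megabase the median gap was 404 bp (quartiles 215 and 965 bp, n = 361), compared to 1044 bp in the whole list. Gap length is tied to the number of sites by which the megabase was selected, so this comparison is a description. The longest gap was 89907 bp and extended from the site at the 5′ end of Rasgrp1 to the first site of the dense stretch (chr2:117342822-117432728). The next measured 73857 bp (chr2:117018884-117092740), before Spred1, and 52711 bp (chr2:117123355-117176065), within Spred1. After the first site of the dense stretch no gap exceeded 13913 bp and the median was 385 bp. The shortest gap was 14 bp. In total, 29 gaps (8.03%) were shorter than 100 bp, compared to 6.89% in the list.

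**Figure D4:**
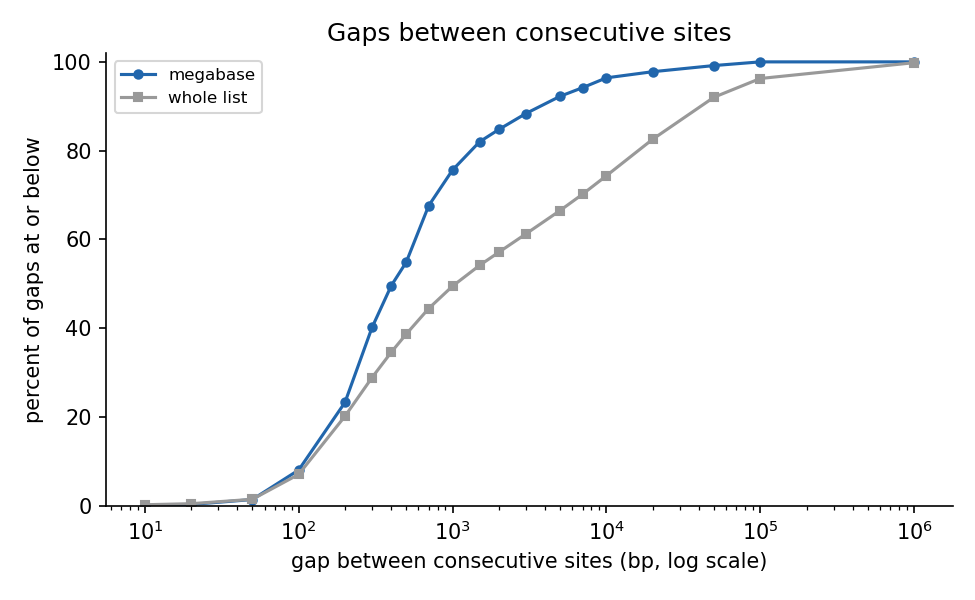
Percent of gaps between consecutive sites at or below a given length (bp, log scale) for the megabase (blue, n = 361 gaps) and the whole list (grey). At 1 kb the megabase has reached 75.6% and the list 49.5%, a description, since the megabase was selected on its number of sites.

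A neighbour at less than 1 kb was found for 320 of 362 sites (88.4%, interval 84.7 to 91.3%), compared to 72.2% of all sites. This measure is tied to the density by which the megabase was selected and is given as a description. Up to the 5′ end of Rasgrp1 it was 3 of 14 sites, the group at the 5′ end of Spred1, and after Rasgrp1 317 of 348 (91.1%). When sites less than 1 kb apart were joined, 89 regions remained, of which 42 consisted of 1 site, 24 of 2 to 4 sites and 23 of 5 or more. These 23 clusters contained 257 sites, or 71.0% of the megabase, compared to 23.4% of all sites. All 23 clusters were located after Rasgrp1.

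The largest, cluster 10 (chr2:117639363-117681923), comprised 46 sites over 42.6 kb, 296.4 to 338.9 kb after the 5′ end of Rasgrp1. Sites covered 64.9% of its length, with widths from 201 to 2145 bp and a median of 434.5 bp. It had no annotated gene within it. In the whole list of 61769 such regions, 2 contained more sites, and the maximum was 53.

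The next clusters by number of sites lay on both sides of it. Cluster 18 (chr2:117862337-117888622) comprised 20 sites over 26.3 kb and was within 4930412B13Rik and Gm13986. With a median width of 800 bp and 79.97% of its length covered, it had wider sites than cluster 10. Cluster 1 (chr2:117449285-117464877), with 18 sites over 15.6 kb, was the first after Rasgrp1 and 106.3 kb away from its 5′ end. Cluster 22 (chr2:117941590-117963377) had 17 sites over 21.8 kb in Gm13986, and cluster 6 (chr2:117587466-117604256) had 16 sites over 16.8 kb outside genes.

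The further 18 clusters comprised between 5 and 13 sites. Of all 23, 13 touched no annotated gene, and these were the 13 nearest to Rasgrp1. The other 10 touched at least 1 of the 4 noncoding genes. The share of the length covered ranged from 34.8% in cluster 23 (chr2:117980951-117984607, 5 sites) to 80.6% in cluster 3 (chr2:117538167-117548755, 8 sites). The clusters thus contained stretches without a site. How many of the gaps existed in any single sample cannot be told from the joined list.

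**Figure D5:**
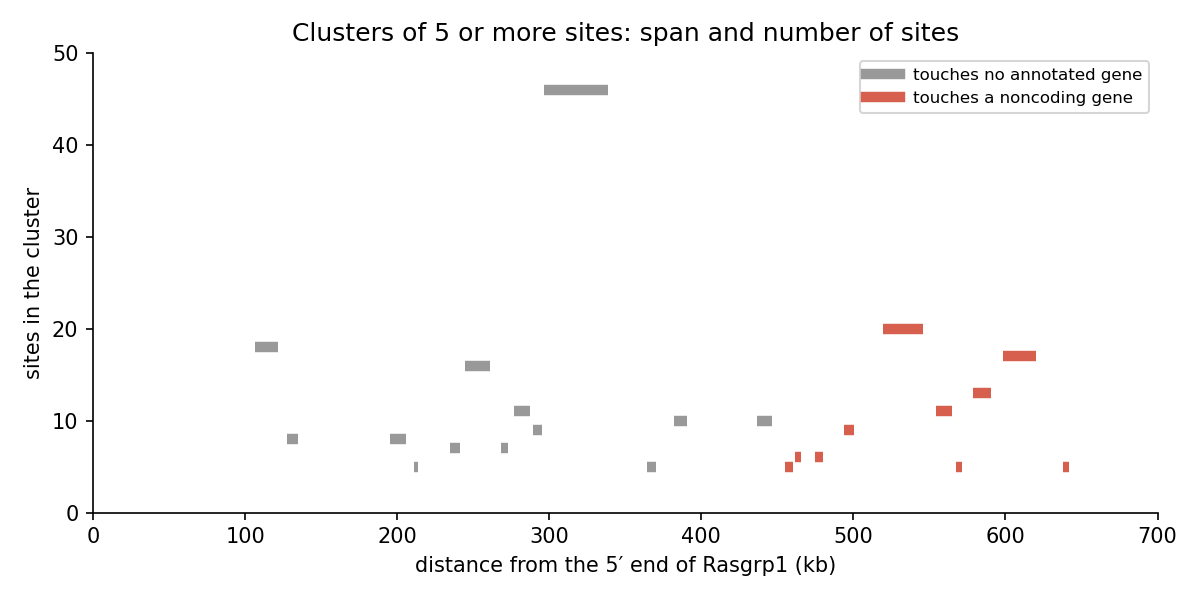
Number of sites in each of the 23 clusters of 5 or more sites, drawn from its first to its last base as distance from the 5′ end of Rasgrp1 (kb). Grey clusters touch no annotated gene and red clusters touch a noncoding gene, and cluster 10 with 46 sites stands above the others, which have 5 to 20.

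Joined over gaps of up to 12.5 kb, a distance often used to define large enhancer clusters, the dense stretch formed 3 regions. The first (chr2:117432729-117556615) comprised 58 sites over 123.9 kb and the second (chr2:117570524-117822905) 181 sites over 252.4 kb. The third (chr2:117836819-118130291) comprised 189 sites over 293.5 kb, 109 of them in the megabase, and extended past Thbs1. The signal of the sites, by which such regions are usually ranked, was not part of the list.

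Sequence composition of the sites was low in GC and CpG. The median GC content was 44.9% (interval 44.6 to 45.6%), compared to 48.8% over all sites and 48.2% over sites more than 1 kb from a TSS. Of 1684 bins with at least 20 sites, 7 had a lower median. The median ratio of observed to expected CpG was 0.133 compared to 0.205, and 33 sites (9.12%) contained no CpG, compared to 5.23% of all sites. For sites more than 1 kb from a TSS the ratio was 0.133 compared to 0.183. The share of these without CpG was 9.32% compared to 6.11%. Sites up to the 5′ end of Rasgrp1 had a median GC content of 49.8%, and those after it 44.9%. A CGI overlapped 4 sites (1.10%, interval 0.431 to 2.81%), compared to 10.5% of all sites. Of the sites more than 1 kb from a TSS, it was 1 of 354 (0.282%, interval 0.0499 to 1.58%), compared to 1.01% of all such sites, and no difference was detectable at this number. Repeat sequence made up a median of 11.2% of a site, compared to 11.0% for all sites.

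Motifs were searched as exact letters on both strands in the central 300 bp of each site, and matches of different motifs could overlap. For sites narrower than 300 bp this window included flanking sequence, so a match counted there may lie outside the site. AP-1 (TGAGTCA) was found in 28 sites (7.73%, interval 5.41 to 10.95%), compared to 8.88% of all sites, which was within the interval. Over the whole width of the sites, 44 of 362 sites (12.2%) had a match, compared to 15.9% of all sites. Among the 44, 5 had 2 matches, including the sites shown above, and the share of all sites with 2 was not computed. Per kb of sequence, the sites of the megabase had 0.227 matches (95% Poisson interval 0.168 to 0.300) compared to 0.308 in all sites. Within the megabase, gaps of less than 1 kb had 0.208 (interval 0.127 to 0.321) and the remaining sequence 0.163 (interval 0.134 to 0.196). The density in the list was thus above the interval of the megabase's sites. The intervals of the sites and of the remaining sequence overlapped, while each value was outside the interval of the other. These intervals cover counting error only and treat matches in neighbouring sites as independent, so they may be too narrow. No difference was tested. In the whole list, gaps of less than 1 kb had 0.415 matches per kb and the remaining sequence 0.157.

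The TEAD motif (GGAATG) was found in 74 sites (20.4% compared to 18.2% of all sites), the RUNX motif (TGTGGT) in 90 (24.9% compared to 22.5%) and the NFI motif (TTGGCA) in 63 (17.4% compared to 16.1%). For these 3 the share of all sites was within the 95% Wilson interval of the megabase. The motif of SP and KLF factors (GGGCGG) is rich in GC and common at CGI promoters. It was found in 7 sites (1.93%, interval 0.940 to 3.94%), compared to 9.81% of all sites. Among sites more than 1 kb from a TSS it was in 6 of 354 (1.69%, interval 0.779 to 3.65%), compared to 5.11% of all such sites. The GC content of the sites differed in the same direction, and its part in this was not tested. The C/EBP motif (TTGCGCAA) was in 1 site (0.276%, interval 0.0488 to 1.55%), compared to 0.0434% of all sites, and a single site does not allow a comparison.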

How the data were processed

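ChIP-seq for H3K27ac was carried out by the authors in 12 libraries, with 2 input libraries. The authors trimmed reads with Trim Galore, aligned them to mm10 with BWA, filtered them with SAMtools, used Picard to merge replicates and MACS to call narrow peaks (version and threshold not given in the sources used here). The peaks of all samples were joined in a way that is not described. The deposited values were positions in base pairs. They were read as starts counted from 0 and are printed counted from 1. Joining can widen sites, and merging hides the replicates.

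The members and gene lists were chosen with earlier results of these data known. Genes were taken from GENCODE M21 and sequence from GRCm38.p6. Sites were assigned to genes and stretches by their middle, and a site at a promoter had it within 1 kb of a TSS of any transcript. CGIs were called from repeat-masked sequence (CpG scored 17, other bases -1, at least 200 bp, GC content of at least 50%, observed to expected ratio of at least 0.6). Genes named were all those of the megabase with a site or protein-coding, the flanking genes and a list of Ras regulators. Others were named after their values were seen. Shares have 95% Wilson intervals, medians have order-statistic intervals and densities have exact Poisson intervals. No test between samples was possible, and the planned count test (edgeR) was not used here. Procedures were tested on simulated data. Python 3.11.15, numpy 2.4.6, pandas 2.3.3, scipy 1.17.1, numba 0.67.0, statsmodels 0.14.6 and matplotlib 3.10.9 were used.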

Additional observations from a re-analysis of the deposited data

How the results depend on the processing

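For 9 results, 36 alternatives were run and 21 of these left the value within its interval or, for counts, within 1.5-fold. Merging of sites less than 1 kb apart left 89 regions, ranked 6 among the bins, with a median width of 827 bp. By base pairs in sites the rank was 4. Without the narrowest 25% of sites (up to 265 bp) the median width was 490 bp. The share near a TSS was 5.25% with a window of 3 kb and 0.829% with protein-coding TSSs, while the share outside protein-coding genes was 97.8%, compared to 30.5%, 13.7% and 38.3% of all sites. A neighbour was found for 74.0% of sites within 500 bp and 96.4% within 5 kb. Clusters numbered 9 with a gap of 5 kb and 3 with 12.5 kb, as neighbouring clusters joined. The AP-1 share was 5.25% in the central 200 bp and 12.2% over the whole site, compared to 5.75% and 15.9% of all sites. With TGANTCA it was also 12.2%, compared to 12.4%. With RefSeq starts added, 11 sites (3.04%) were within 1 kb of a TSS. The limit of 12.5 kb, the RefSeq starts, the regions counted across the edge (24) and the stretch after Rasgrp1 alone (348 sites) were added once the data had been seen. No paired analysis was possible because only joined positions were given, and for the same reason no replicate could be left out. Read depth behind the sites was unknown.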

Other observations

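RefSeq lists further noncoding starts after Rasgrp1, which were looked up after the data had been seen. Gm32137, 96.98 kb after the 5′ end of Rasgrp1, had 1 site within 1 kb, and Gm32210, at 361.95 kb, had 2. The start of Gm32020, at 16.9 kb and thus within the longest gap, had 0. None of these 3 starts was inside a site.

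Considered over the whole of chromosome 2, including sites beyond the edge, 24 regions of 5 or more sites began in the megabase. No other bin had more than 20.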
